A study of Mus musculus with 59 samples.

Results

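Lithium and fluoxetine, a pair of psychiatric drugs with different targets, were set against each other in wild-type C57BL/6J mouse pups. The comparison used 19 of the 59 prefrontal cortex RNA libraries in the study: 10 from lithium-treated mice (5 females and 5 males) and 9 from fluoxetine-treated mice (5 females and 4 males), chosen by their labels for genotype, drug and sex. The drugs reached the pups from postnatal day 3 to day 24 through maternal milk, and the cortex was collected on day 25. The dose that each pup received was not analysed here. The 10 wild-type vehicle libraries (5 females and 5 males), treated over the same days, give the background, and 20 libraries from heterozygous Dyrk1a+/I48X mice on the same drugs (5 per drug and sex) carry 1 mutant allele of the kinase gene Dyrk1a. No label names a litter or a dam. P-values therefore measure the spread between these mice, and a difference between litters cannot be told apart from a difference between drugs.

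Lithium is a mood stabilizer that inhibits the kinases GSK3A and GSK3B, which mark beta-catenin for destruction, and the phosphatases that recycle inositol from inositol phosphates. Fluoxetine is an antidepressant that blocks the serotonin transporter on the terminals of serotonin neurons, whose cell bodies lie in the brainstem and not in the cortex. Both drugs act on proteins, so an effect on their direct targets need not be seen in mRNA, which is what was measured here.

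Recovered library totals ran from 24435922 to 30426178 counts, and replicate libraries of 1 group differed by more than counting error (the lowest chi-square per gene over 36 pairs was 6.096). Sex-linked transcripts matched the labelled sex in 19 of 19 libraries. Markers of cortical projection neurons were high in every library: Slc17a7, the vesicular glutamate transporter of these cells, ran from 38430 to 49320 normalised counts and Cux2 from 2485 to 3196. The striatal receptor Drd2 ran from 16.6 to 44.1. Dyrk1a was 2190.0 ± 34.6 under lithium and 2160.0 ± 60.4 under fluoxetine (SD, n = 10 and 9). In heterozygous mice its mRNA was not lower, with a median of 2330 normalised counts under lithium and 2348 under fluoxetine, so the mRNA level does not check the genotype labels.

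Between the drugs, 2465 of 17358 genes tested passed a limma adjusted p of 0.05 (14.2%), of which 1352 were higher under lithium (7.79%) and 1113 were lower (6.41%). Each count of list members in this contrast is to be read beside these shares. Differences are given throughout as log2 of the lithium level over the fluoxetine level, computed from log2(value + 1), and ± after a difference is its standard error. The differences were small: the median size over called genes was 0.197, and 97 of them exceeded 1 on the log2 scale. The libraries of the drugs did not overlap for 34 genes (0.196% of those tested), 23 higher and 11 lower under lithium. Leaving out 1 library at a time gave 1302 called genes (without fluoxetine male 2) to 3493 (without fluoxetine female 2). The count also moved by more than 1.5 times without fluoxetine female 5 (1598), fluoxetine male 1 (1578), lithium female 4 (1602), lithium male 2 (1614) or lithium male 5 (1642).

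Relative to fluoxetine, the deepest falls under lithium were in genes of the olfactory bulb, the forebrain region in front of the prefrontal cortex. Of 18 listed bulb markers 17 were lower and 0 higher, with a median difference of -1.34, against 0.00646 over all genes tested. The remaining gene, Slc17a6, was not called. Without fluoxetine male 2, limma called 11 of the 18. With all 19 libraries, edgeR called 10 of the 18 lower and 0 higher. The list has no member at 0 in any of the 3 wild-type groups. Its summed level ran from 12040 to 37210 normalised counts under lithium (median 15350) and from 23920 to 46660 under fluoxetine (median 36330). Under vehicle it ran from 11940 to 53400 (median 13610), so the vehicle median was near that of lithium. Against vehicle, bulb markers were not called for lithium, and most were higher for fluoxetine. In bulk tissue, fewer cells of a type, less RNA per cell and less bulb tissue in the dissected piece cannot be told apart.

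Eomes, a transcription factor kept on in the mitral and tufted cells that carry the bulb's output, had the deepest fall of the named genes. Its level under lithium ran from 21.2 to 699 normalised counts with a median of 139.6, and under fluoxetine from 402.5 to 959 with a median of 667.4. The groups overlapped. The difference was -2.31 ± 0.64 (limma adjusted p = 0.0236). Doc2g (-2.08), the cadherin-related Cdhr1 (-1.97) and Th, which makes the rate-limiting enzyme of dopamine synthesis in bulb periglomerular cells (-1.86), fell in the same contrast, as did Calb2, the gene of the calcium-binding protein calretinin (-1.58). Of these, Eomes lost its call without fluoxetine male 2 (limma adjusted p = 0.0519), and Cdhr1 lost it without that library (limma adjusted p = 0.0551) or lithium female 4 (limma adjusted p = 0.0502). The other named falls were Lgr5, a receptor for R-spondins (-1.40), Lgr6 of the same family (-1.25), the transcription factors Sp8 (-1.27), Pbx3 (-1.10), Tshz1 (-1.08) and Dlx1 (-1.02), and Fabp7, a fatty acid carrier of glia (-0.98). Without 1 library, Lgr6 lost its call in 9 of 19 cases.

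The list mean of the bulb markers, which is the average over the list of each gene's log2 deviation from its mean in all 59 libraries, showed how the groups differed. Under fluoxetine it was 0.681 ± 0.334 (SD, n = 9) and ran from 0.0208 to 1.11. Under lithium it was -0.709 ± 1.14 (SD, n = 10) and ran from -2.09 to 0.722. Lithium females had 0.301, 0.722, -1.65, -1.68 and 0.714, and lithium males 0.462, -2.09, -1.02, -1.04 and -1.80. Thus 4 lithium libraries lay within the fluoxetine range and 6 lay below it. Vehicle libraries spread as widely as the lithium libraries, with -0.83 ± 1.26 (SD, n = 10) and a range of -2.16 to 1.33. The fluoxetine libraries were the narrow group.

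**Figure D1:**
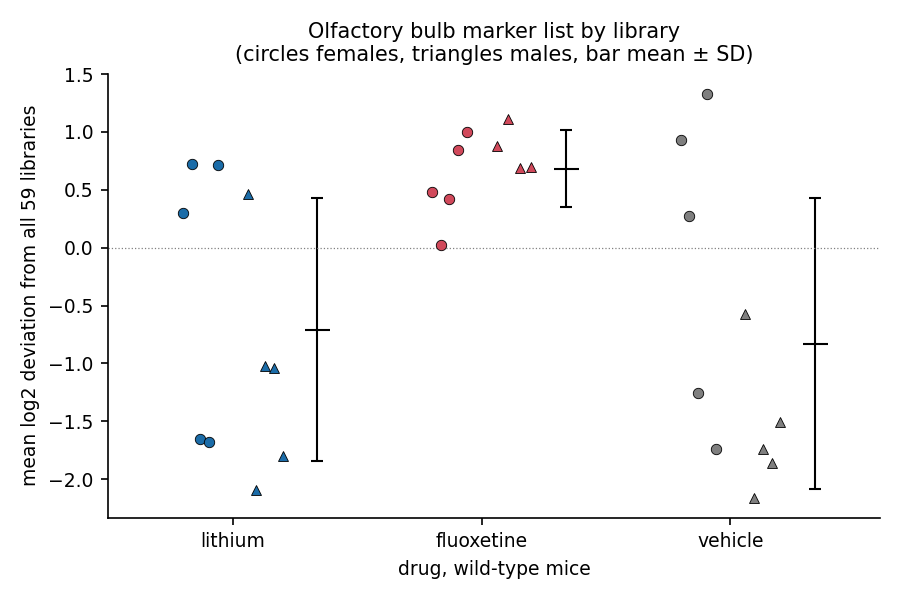
Mean log2 deviation of the olfactory bulb marker list in each wild-type library, by drug and sex; each point is 1 library. The 9 fluoxetine libraries sit between 0.0208 and 1.11, while lithium and vehicle libraries spread from about that level down to -2.09 and -2.16.

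Because these markers moved with the drug contrast, the contrast was also fitted with the bulb list mean as a covariate, an alternative chosen after the data were seen. In that fit 3 of 17358 genes were called (0.0173%; 2 higher, 0.0115%; 1 lower, 0.00576%), with 1662 at an unadjusted p under 0.05, and edgeR called 6. The 3 were Castor2, Sesn3 and Pnck, so no other gene named below as risen or fallen kept its call in it. The median size over the 2465 genes fell to 0.0891, the difference was smaller for 2299 of them, and the sign reversed for 115. The covariate takes up part of the contrast itself, since the list mean differs between the drugs. The part of the bulb markers in each difference was not tested otherwise. With the 10 vehicle libraries added to the covariate fit, 31 genes were called (0.176%; 13 higher, 0.0739%), of which 24 were among the 2465 with the same sign.

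**Figure D2:**
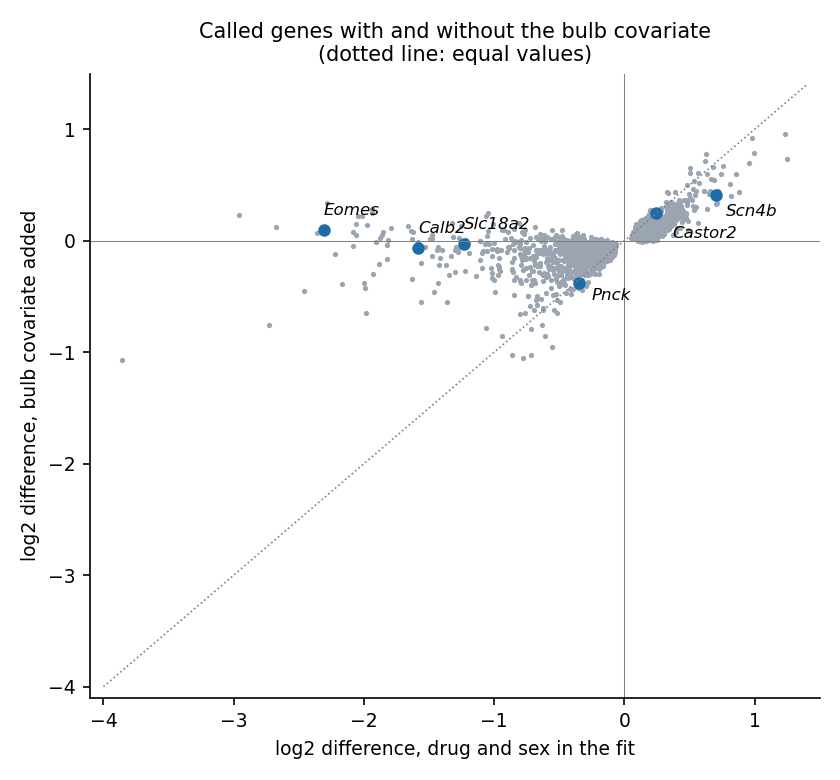
Log2 difference, lithium minus fluoxetine, for the 2465 called genes without (horizontal axis) and with (vertical axis) the bulb list mean as a covariate; each point is 1 gene. Eomes moves from -2.31 to 0.10, Castor2 from 0.24 to 0.25 and Pnck from -0.35 to -0.38.

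**Figure D3:**
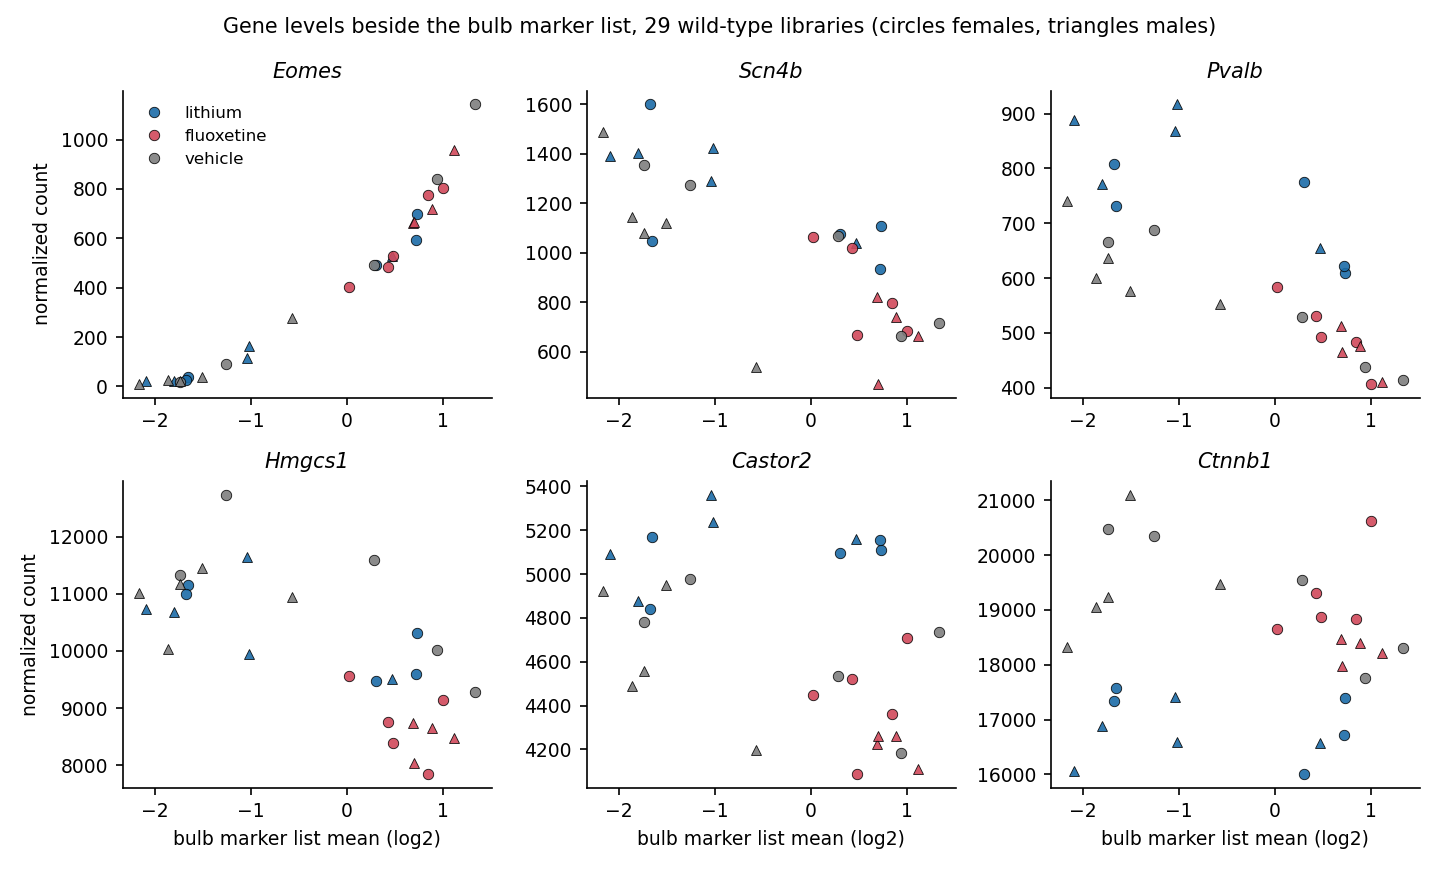
Normalised counts of 6 genes against the bulb list mean in the 29 wild-type libraries; each point is 1 library, coloured by drug. Eomes, itself a member of the list, rises with the list mean, and no fluoxetine library lies below a list mean of 0.0208.

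Castor2 (chromosome 5, 134099711 to 134144343 on GRCm38) is a paralogue of Castor1, an arginine sensor upstream of the growth kinase complex mTORC1. It ran from 4839 to 5362 normalised counts under lithium, with a median of 5131, and from 4088 to 4706 under fluoxetine, with a median of 4262. The groups did not overlap, and vehicle lay between them at 4632 ± 291 (SD, n = 10). The difference was 0.24 ± 0.027 (limma adjusted p = 0.000301), and 0.25 with the covariate (limma adjusted p = 0.00491).

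Sesn3 (chromosome 9, 14275067 to 14333101) encodes a sestrin, a family of stress-induced proteins that also restrain mTORC1. It ran from 5499 to 6221 normalised counts under lithium (median 5930) and from 4613 to 5334 under fluoxetine (median 5123), with no overlap. The difference was 0.23 ± 0.028 (limma adjusted p = 0.000473), and 0.25 with the covariate (limma adjusted p = 0.00491). Vehicle was at 5750 ± 232 (SD, n = 10), near lithium: the difference from vehicle was 0.04 for lithium (limma adjusted p = 0.646) and -0.18 for fluoxetine (limma adjusted p = 0.000903).

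Pnck (chromosome X, 73655994 to 73660117), a calcium/calmodulin-dependent protein kinase of neurons, went the other way. It ran from 1162 to 1476 under lithium (median 1405) and from 1531 to 2004 under fluoxetine (median 1748). The difference was -0.35 ± 0.05 (limma adjusted p = 0.00132), and -0.38 with the covariate (limma adjusted p = 0.0402). Vehicle was at 1660 ± 143 (SD, n = 10), near fluoxetine, with a difference from vehicle of -0.27 for lithium (limma adjusted p = 0.00731) and 0.08 for fluoxetine (limma adjusted p = 0.329). Castor2, Sesn3 and Pnck were called with the same sign under 38 of 38 alternatives each.

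Since 2 of these genes belong to the amino acid branch of mTORC1, the genes of that branch were listed after their values were seen. The list includes Castor2 and Sesn3 themselves, so the count describes these libraries only. Of 36 genes 7 were higher and 2 lower, with a median of 0.02, beside 7.79% higher and 6.41% lower over all genes. Slc38a9, the lysosomal transporter that senses arginine, rose by 0.15 ± 0.03 (limma adjusted p = 0.00686), and Rragb, 1 of the Rag GTPases that bring mTORC1 to the lysosome, by 0.13 ± 0.023 (limma adjusted p = 0.00419). Lamtor4, part of the scaffold that holds the Rag GTPases, fell by 0.17 (limma adjusted p = 0.0295) and lost its call without any 1 of 5 libraries, up to a limma adjusted p of 0.0555 without fluoxetine female 5.

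**Figure D4:**
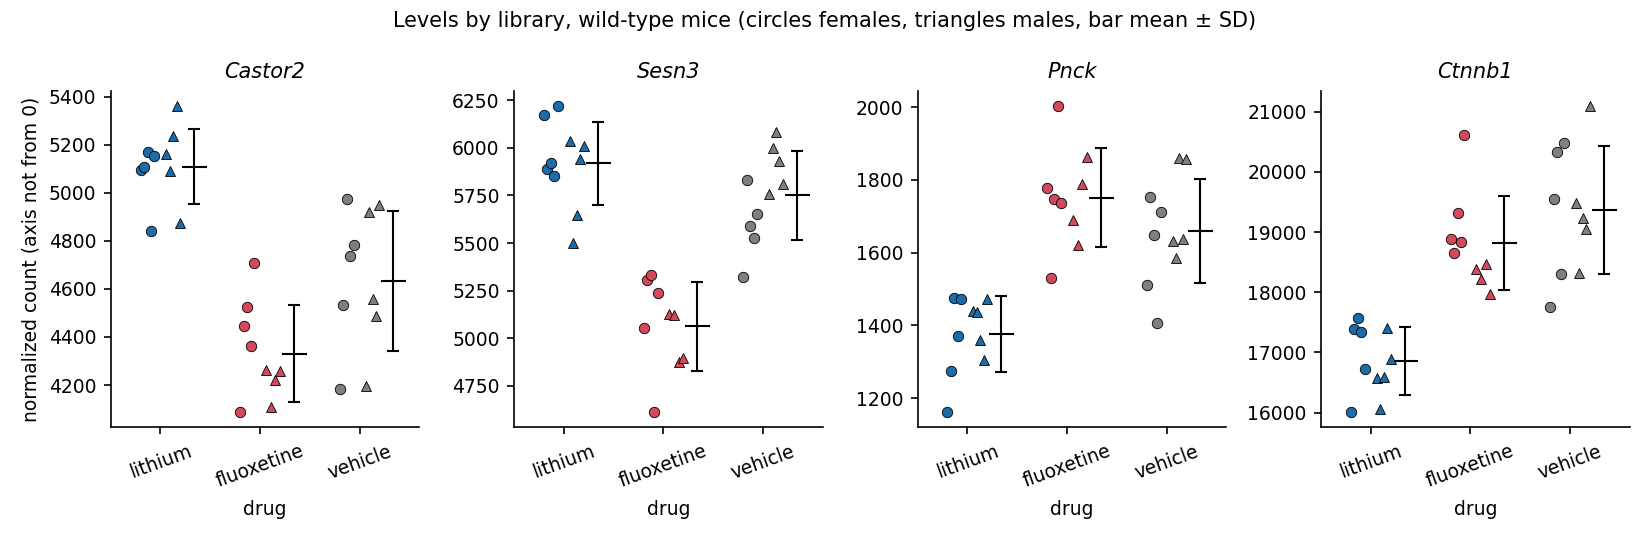
Normalised counts of Castor2, Sesn3, Pnck and Ctnnb1 in each wild-type library under lithium, fluoxetine and vehicle; circles are females, triangles males, and bars the mean ± SD, on axes that do not start at 0. Lithium and fluoxetine libraries do not overlap for any of the 4 genes; the vehicle mean is nearer to lithium for Sesn3 and to fluoxetine for Pnck and Ctnnb1.

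The gene of beta-catenin itself, the protein that GSK3 marks for destruction, was lower under lithium. Ctnnb1 (chromosome 9, 120929216 to 120960507) ran from 16010 to 17580 normalised counts under lithium (median 16810) and from 17970 to 20620 under fluoxetine (median 18650), with no overlap. The difference was -0.16 ± 0.025 (limma adjusted p = 0.0027), and -0.17 with the bulb covariate, where it was not called (limma adjusted p = 0.0705). Against vehicle (19360 ± 1062, SD, n = 10) the difference was -0.20 for lithium (limma adjusted p = 0.000798) and -0.04 for fluoxetine (limma adjusted p = 0.406). It was called under 35 of 38 alternatives.

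Over the list of beta-catenin pathway genes and targets, 3 of 36 were higher and 9 lower (7.79% and 6.41% over all genes). The median was -0.03. The counts rest on single libraries: without fluoxetine female 5, fluoxetine male 2 or lithium female 4 the number lower was 4, and without fluoxetine male 1, lithium male 2 or lithium male 5 it was 5. Sfrp1, a secreted Wnt antagonist, was at 351.2 ± 57.8 and 455.2 ± 39.3 normalised counts (SD, n = 10 and 9), a fall of 0.38 on the log2 scale (limma adjusted p = 0.0101). The ligand gene Wnt5a fell by 0.50 (limma adjusted p = 0.0146), which became -0.06 with the covariate. The cell cycle gene Ccnd1 rose by 0.29 (limma adjusted p = 0.0105). Axin2, a target gene widely read as a sign of beta-catenin signalling, was at 732.7 ± 34.3 and 714.3 ± 48.6 (SD, n = 10 and 9; limma adjusted p = 0.487).

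The mRNAs of lithium's kinase targets differed little. Gsk3b ran from 5956 to 6946 normalised counts under lithium and from 5225 to 6634 under fluoxetine, a difference of 0.12 ± 0.039 (limma adjusted p = 0.0422). Leaving out any 1 of 13 libraries ended that call, up to a limma adjusted p of 0.0889 without fluoxetine male 4. Gsk3a was at 5795 ± 261 and 5524 ± 212 (SD, n = 10 and 9; limma adjusted p = 0.116).

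Of 23 genes for inositol phosphate enzymes and inositol transport, 5 were higher and 2 lower (7.79% and 6.41% over all genes). The number higher was 3 without lithium female 4, lithium male 5 or any 1 of the 4 fluoxetine males. Impa1, the inositol monophosphatase that lithium inhibits, was at 1998 ± 58.6 and 1906 ± 69.4 normalised counts (SD, n = 10 and 9), with a difference of 0.07 ± 0.024 (limma adjusted p = 0.0559) that was called without fluoxetine female 2 (limma adjusted p = 0.025) or lithium male 1 (limma adjusted p = 0.047). Slc5a3, the sodium/myo-inositol cotransporter, ran from 644.6 to 894.2 under lithium (median 794.1) and from 589.2 to 725.5 under fluoxetine (median 692.8). It rose by 0.20 ± 0.059 (limma adjusted p = 0.0285), and was not called without fluoxetine male 4 (limma adjusted p = 0.0612) or lithium male 5 (limma adjusted p = 0.0541). The other called members with the smallest p were Plcb1, a phospholipase C (0.15), Ppip5k1, an inositol pyrophosphate kinase (0.12), Cdipt, which makes phosphatidylinositol (0.10), and Ip6k1, an inositol hexakisphosphate kinase (-0.12). Cdipt lost its call without any 1 of 4 libraries and Ip6k1 without any 1 of 2. In the fit with the bulb list 0 of the 23 were called.

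Of 25 genes of sterol synthesis 15 were higher under lithium and 0 lower, with a median of 0.179, against 7.79% of all genes higher. Cells make cholesterol from acetyl-CoA through mevalonate and a chain of sterol intermediates, and the SREBP transcription factors raise the genes of this chain together when membrane sterol is low. In the developing brain cholesterol is made locally, since that in blood does not cross into it. The list mean was 0.0839 ± 0.073 under lithium and -0.0801 ± 0.0423 under fluoxetine (SD, n = 10 and 9). Vehicle was at 0.143 ± 0.079 (SD, n = 10), on the lithium side. Leaving out 1 library at a time gave 13 to 19 members higher. Beside the bulb list mean 0 of 25 were called, the median was 0.132, and 25 of 25 differences were above 0.

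Hmgcs1, the synthase of the mevalonate pathway's first committed intermediate, ran from 9476 to 11650 normalised counts under lithium (median 10490) and from 7851 to 9564 under fluoxetine (median 8653). The groups overlapped by a narrow margin. The difference was 0.27 ± 0.044 (limma adjusted p = 0.0027), and 0.17 with the covariate (limma adjusted p = 0.231). Nsdhl, a dehydrogenase that takes part in removing methyl groups from sterols, was the 1 member whose groups did not overlap: 672.6 to 840 under lithium (median 746.2) and 608.5 to 670.5 under fluoxetine (median 634.9). Its difference was 0.22 ± 0.039 (limma adjusted p = 0.00401).

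Stard4, which carries cholesterol between membranes, was at 960.7 ± 62.3 and 765.6 ± 58.8 normalised counts (SD, n = 10 and 9), the smallest p of the list, with a difference of 0.33 ± 0.047 (limma adjusted p = 0.00132). The sterol oxidase genes Sc5d and Msmo1 rose by 0.21 (limma adjusted p = 0.00323) and 0.28 (limma adjusted p = 0.00375). Idi1, the isopentenyl diphosphate isomerase, rose by 0.23 (limma adjusted p = 0.00642). Outside the list and chosen after their values were seen, Nceh1, a hydrolase of cholesterol esters, was higher by 0.27 (limma adjusted p = 0.00196) and Acaca, the acetyl-CoA carboxylase of fatty acid synthesis, by 0.12 (limma adjusted p = 0.00612), both without overlap of the groups.

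The sterol genes were also set against vehicle. Under fluoxetine 19 of the 25 genes were lower than vehicle and 0 higher (background 3.33% lower), with a median of -0.25, while under lithium 1 was lower and 0 higher (background 0.256% lower), with a median of -0.07. Hmgcs1 differed from vehicle by -0.34 under fluoxetine (limma adjusted p = 0.000462) and by -0.07 under lithium (limma adjusted p = 0.638), and Stard4 by -0.47 (limma adjusted p = 2.27e-05) and -0.14 (limma adjusted p = 0.279). Bulb markers were also higher under fluoxetine than under vehicle. With the bulb covariate the counts of sterol genes lower than vehicle were 8 under fluoxetine (background 0.313% lower) and 1 under lithium (background 0.893% lower). These comparisons share the vehicle libraries, so their values stand side by side and no correlation between them is given.

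**Figure D5:**
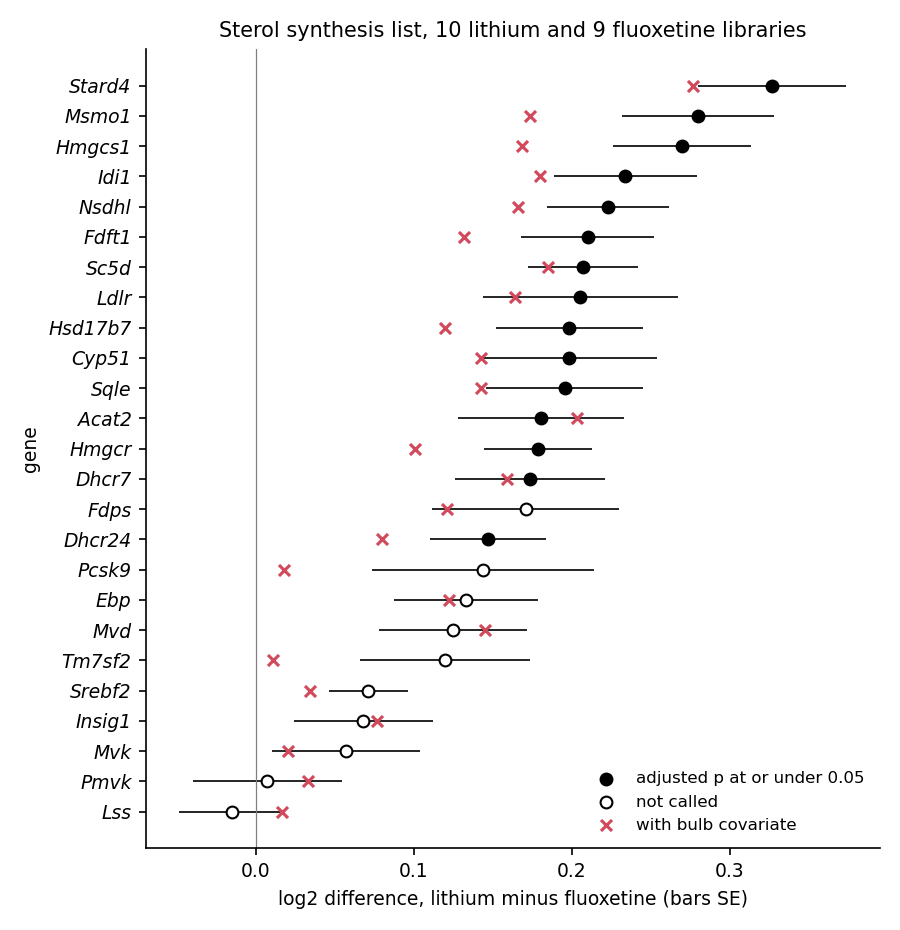
Log2 difference, lithium minus fluoxetine, for each of the 25 sterol genes with its standard error, in wild-type mice; filled circles are called genes, open circles genes not called, and crosses the difference with the bulb covariate. Of the 25 values 24 lie above 0, from the 15 called genes, led by Stard4 at 0.33, down to members near 0.

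Promoters of 3 of the sterol genes are shown to describe their upstream sequences. Whether a shared box has a part in the drug difference was not tested. The sequences are from RefSeq on GRCm38.p6, 5′ to 3′ on the gene's strand, and end just before the annotated start. For Nsdhl the last 109 bases of the 250 are printed, since annotated exons overlap the rest. Capitals mark ATTGG, which is CCAAT read on the other strand and is the box bound by NF-Y, and in Hmgcs1 also TCACCCCAC, a match to the sterol regulatory element TCACNCCAC. The windows are chr13:119690101-119690350 (plus strand) for Hmgcs1, chr9:42264301-42264550 (minus strand) for Sc5d and chrX:72918412-72918520 (plus strand) for Nsdhl.
Hmgcs1: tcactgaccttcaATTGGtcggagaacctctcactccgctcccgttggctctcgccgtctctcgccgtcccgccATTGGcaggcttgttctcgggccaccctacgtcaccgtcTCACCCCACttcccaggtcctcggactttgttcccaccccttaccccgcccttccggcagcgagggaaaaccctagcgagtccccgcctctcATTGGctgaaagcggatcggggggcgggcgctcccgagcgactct
Sc5d: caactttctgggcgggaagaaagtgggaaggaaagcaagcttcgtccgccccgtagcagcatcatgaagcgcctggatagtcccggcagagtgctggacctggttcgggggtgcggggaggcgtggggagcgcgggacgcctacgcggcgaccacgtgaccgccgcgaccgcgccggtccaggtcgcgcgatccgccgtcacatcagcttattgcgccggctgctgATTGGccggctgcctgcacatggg
Nsdhl: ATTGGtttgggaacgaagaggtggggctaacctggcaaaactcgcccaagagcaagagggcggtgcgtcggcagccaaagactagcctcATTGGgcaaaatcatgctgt
As printed, Hmgcs1 holds 3 CCAAT boxes and 1 sterol element, Sc5d holds 1 box and Nsdhl 2. Searched on both strands over the whole 250 bases before each start, Nsdhl included, CCAAT was in 16 of the 17 sterol genes that matched a window (94.1%) and in 4979 of 12445 tested genes with a window (40.0%). TCACNCCAC was in 1 of the 17 (5.88%) and in 151 of the 12445 (1.21%). A match is a description of the letters and shows no binding.

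Fast-spiking interneurons, marked by parvalbumin, inhibit the cell bodies of projection neurons and mature in the weeks that the treatment covered. Pvalb ran from 608.6 to 916.8 normalised counts under lithium (median 773.8) and from 407.5 to 583.7 under fluoxetine (median 482.7), with no overlap. The difference was 0.65 ± 0.081 (limma adjusted p = 0.000481), and 0.43 with the bulb covariate (limma adjusted p = 0.0544). Vehicle lay between at 584 ± 105 (SD, n = 10), with a difference from vehicle of 0.40 for lithium (limma adjusted p = 0.0404) and -0.25 for fluoxetine (limma adjusted p = 0.0957).

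Syt2, the calcium sensor for fast transmitter release at the terminals of these cells, ran from 535.2 to 821.8 under lithium (median 676.2) and from 341.3 to 562 under fluoxetine (median 432.5). The ranges overlapped, with a difference of 0.66 ± 0.094 (limma adjusted p = 0.00132). Scn4b, a sodium channel beta subunit, had the largest of the named rises at 0.70 ± 0.13 (limma adjusted p = 0.00601), and Kcna1, a potassium channel of axons, rose by 0.40 ± 0.075 (limma adjusted p = 0.00605). With the covariate the values were 0.45, 0.41 and 0.28, and none of these genes was called.

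A list of 16 genes of these cells and their axons had 11 higher and 0 lower, with a median of 0.257. Over all genes 7.79% were higher and 6.41% lower. The list was put together after its values were seen, so its count follows from that choice and describes these libraries only. It includes Hapln4, a link protein of the perineuronal matrix (0.37, limma adjusted p = 0.0027), the sodium channel gene Scn1a (0.24, limma adjusted p = 0.0172), the neurofilament gene Nefh (0.38, limma adjusted p = 0.0071) and the receptor gene Gpr83, whose groups did not overlap (513.7 ± 27.8 and 373.5 ± 48.7 normalised counts, SD, n = 10 and 9; limma adjusted p = 0.000877). In the covariate fit 0 of 16 were called and the median was 0.21.

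Over the wider list for interneurons and the GABA synapse, 9 of 33 were higher and 10 lower (7.79% and 6.41% over all genes). The median was 0.01. Without fluoxetine male 2 the number lower was 6. Among the falls were the homeobox genes Dlx1 (-1.02), Dlx5 (-0.90), Dlx2 (-0.87) and Dlx6 (-0.64). Also lower was Crh, a neuropeptide of cortical interneurons, at 130.9 ± 15 and 174 ± 18.5 normalised counts (SD, n = 10 and 9), a difference of -0.41 (limma adjusted p = 0.00491). In the covariate fit 0 of 33 were called.

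Of 36 potassium channel genes 15 were higher and 1 lower (7.79% and 6.41% over all genes), with a median of 0.0991. Kcna2, which pairs with Kcna1 in axons, was at 8599 ± 370 and 7392 ± 678 normalised counts (SD, n = 10 and 9), a difference of 0.22 (limma adjusted p = 0.0071), and Kcnh1 rose by 0.21 (limma adjusted p = 0.00721). In the list of presynaptic release genes 12 of 33 were higher and 1 lower, among them the synaptotagmin Syt4 (0.27, limma adjusted p = 0.0103). Without fluoxetine male 2, 7 presynaptic genes were higher. The covariate fit called 0 members of either list, with medians of 0.04 and -0.01.

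Among deep-layer markers of projection neurons 5 of 19 genes were higher and 2 lower (7.79% and 6.41% over all genes). The median was 0.161. Tbr1, a transcription factor of deep-layer neurons, rose by 0.26 (limma adjusted p = 0.0139), and Tle4, a corepressor of the same neurons, by 0.22 (limma adjusted p = 0.0148). With the covariate they were at 0.06 and 0.17, and 0 of 19 were called. In upper layers 1 of 14 was higher and 1 lower. In the excitatory postsynapse 6 of 36 were higher and 4 lower, and the number higher fell to 2 or 3 without any 1 of 9 libraries.

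Serotonin genes are of interest because fluoxetine acts on serotonin uptake. Slc6a4, the transporter that it blocks, is not among the genes analysed here. Of 21 receptors and handling genes tested 2 were higher and 2 lower, near the 7.79% and 6.41% over all genes. Htr5a, a receptor gene, was at 764.9 ± 41.9 and 644.2 ± 56.8 normalised counts (SD, n = 10 and 9), a rise of 0.25 ± 0.047 (limma adjusted p = 0.00601). Htr3a, the ion channel receptor found on a class of cortical interneurons, was at 183.6 ± 24.2 and 236.4 ± 23.4, a fall of 0.37 (limma adjusted p = 0.00835). Maob, the amine-degrading enzyme, rose by 0.19 (limma adjusted p = 0.0235), a call lost without fluoxetine male 2 (limma adjusted p = 0.0551). Slc18a2, the vesicular monoamine transporter, fell by 1.23 (limma adjusted p = 0.0233), also lost without that library (limma adjusted p = 0.0506). Slc18a2 was at -0.02 with the bulb covariate.

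The receptor genes Htr1a, Htr2a and Htr2c were not called. Htr1a ran from 460.3 to 695.6 normalised counts under lithium and from 435.9 to 668.4 under fluoxetine (limma adjusted p = 0.316). Htr2a was at 1681 ± 234 and 1731 ± 272 (SD, n = 10 and 9; limma adjusted p = 0.772), and Htr2c at 1392 ± 315 and 1159 ± 291 (limma adjusted p = 0.173). For these genes the spread within each group was as wide as the gap between the means.

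Among 39 immediate early genes, which neuronal firing induces, 3 were higher and 1 lower, beside 7.79% higher and 6.41% lower over all genes. The number higher is near that background. Fbxo33 rose by 0.24 (limma adjusted p = 0.0102), Nr4a3, an orphan nuclear receptor induced by firing, by 0.33 (limma adjusted p = 0.0384), and Dusp6, a phosphatase that switches off ERK, by 0.30 (limma adjusted p = 0.0463), while Maff fell by 0.35 (limma adjusted p = 0.0488). Leaving out 1 library at a time ended the calls of Nr4a3, Dusp6 and Maff in 10, 14 and 14 of 19 cases. Fos ran from 457.2 to 1165 normalised counts under lithium and from 302.7 to 862.6 under fluoxetine (limma adjusted p = 0.197), and Arc from 1259 to 4421 and from 1120 to 3322 (limma adjusted p = 0.406). The vehicle mean of Arc was above both at 3847 ± 1031 (SD, n = 10): the difference from vehicle was -1.02 for fluoxetine (limma adjusted p = 0.0146) and -0.73 for lithium (limma adjusted p = 0.149). Bdnf, a growth factor gene that firing induces, was at 1049 ± 124 and 921.9 ± 107 (SD, n = 10 and 9; limma adjusted p = 0.0946), and was called without lithium female 2 (limma adjusted p = 0.0472) or lithium male 1 (limma adjusted p = 0.0403).

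The unfolded protein response raises folding capacity in the endoplasmic reticulum. Of 36 of its genes 7 were higher and 1 lower (7.79% and 6.41% over all genes), with a median of 0.07. Without fluoxetine male 1 or male 2 the number higher was 3, without fluoxetine male 4 it was 4, and without fluoxetine female 2 it was 11. Sel1l, a part of the machinery that retires misfolded proteins, was at 5855 ± 260.2 and 5208 ± 370 normalised counts (SD, n = 10 and 9), a rise of 0.17 (limma adjusted p = 0.0101). The chaperone gene Canx rose by 0.12 (limma adjusted p = 0.0178), the co-chaperone Dnajc3 by 0.12 (limma adjusted p = 0.019) and Sdf2l1 by 0.48 (limma adjusted p = 0.0254). The call for Sdf2l1 was lost without fluoxetine male 1 (limma adjusted p = 0.0514) or male 2 (limma adjusted p = 0.0591).

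Glucocorticoid-responsive genes had 0 of 19 higher and 2 lower, beside 7.79% higher and 6.41% lower over all genes. Fkbp5, a chaperone that glucocorticoids induce, ran from 843.3 to 1073 normalised counts under lithium (median 956.6) and from 978.7 to 1342 under fluoxetine (median 1091). The difference was -0.21 ± 0.057 (limma adjusted p = 0.0196). The vehicle mean was below both at 832 ± 72.5 (SD, n = 10): the difference from vehicle was 0.43 for fluoxetine (limma adjusted p = 0.000188) and 0.21 for lithium (limma adjusted p = 0.0819). Cdkn1a, the gene of the cell cycle inhibitor p21, fell by 0.34 (limma adjusted p = 0.00612), and by 0.13 with the bulb covariate, where it was not called (limma adjusted p = 0.362). Zbtb16, another responsive gene, was at 1103 ± 179 and 963 ± 123 (SD, n = 10 and 9; limma adjusted p = 0.166), the opposite sign to Fkbp5. Against vehicle Zbtb16 differed by 0.45 under lithium (limma adjusted p = 0.0222) and by 0.26 under fluoxetine (limma adjusted p = 0.0934).

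Of 26 interferon-stimulated genes 6 were lower under lithium and 0 higher (6.41% and 7.79% over all genes), with a median of -0.277. The highest library was fluoxetine female 1, with a list mean of 1.03, and the next fluoxetine library had 0.191. Ifit1, an antiviral RNA-binding protein, ran from 39.5 to 61.4 normalised counts under lithium (median 53.9) and from 60.4 to 254 under fluoxetine (median 66). Without fluoxetine female 1 the list had 7 lower and a median of -0.205. Ifit1 was then at -0.44 (limma adjusted p = 0.021), Usp18 at -0.54 (limma adjusted p = 0.0235) and Rtp4 at -0.30 (limma adjusted p = 0.0225), against -0.63, -0.77 and -0.42 with all libraries (limma adjusted p = 0.0378, 0.0395 and 0.0386). H2-K1, a class I histocompatibility gene, fell by 0.33 (limma adjusted p = 0.0148).

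The interferon count moved from 1 to 11 when single libraries were left out: 11 without fluoxetine female 3, and 1 without fluoxetine male 1, fluoxetine male 2, lithium female 3, lithium male 2 or lithium male 5. It was 2 without fluoxetine female 5, lithium female 1, lithium female 4, lithium male 3 or lithium male 4, and 3 without fluoxetine male 3 or male 4. With the bulb covariate 0 of 26 were called and the median was -0.273.

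Among genes for protein synthesis, 9 of 78 cytosolic ribosomal protein genes were lower and 0 higher, with a median of -0.07. Among genes for energy, 10 of 74 oxidative phosphorylation genes were higher and 0 lower, with a median of 0.05. Over all genes 7.79% were higher and 6.41% lower. Rps6, a protein of the small ribosomal subunit, fell by 0.15 (limma adjusted p = 0.0172) and Ndufb6, a complex I subunit, rose by 0.15 (limma adjusted p = 0.00676). The ribosomal count ran from 2 (without fluoxetine female 5 or fluoxetine male 2) to 26 (without fluoxetine female 2), and 12 of the 19 libraries moved it by more than 1.5 times. The oxidative phosphorylation count was 5 without fluoxetine male 1, male 2 or male 3, lithium female 4 or lithium male 2, and 6 without lithium male 4. With the bulb covariate 0 genes of either list were called.

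Of 28 genes of myelinating oligodendrocytes 0 were called by limma (3 at an unadjusted p under 0.05) and 0 by edgeR, with a median of 0.08. Astrocyte genes had 1 of 22 higher and 4 lower, among them F3, the gene of tissue factor, which ran from 754.8 to 947.5 normalised counts under lithium and from 949.6 to 1149 under fluoxetine without overlap (-0.30 ± 0.045, limma adjusted p = 0.00168; -0.29 with the covariate). Microglial genes had 0 of 20 higher and 1 lower. Among 13 complement genes C4b fell by 0.42 (limma adjusted p = 0.021), which became -0.11 with the covariate. Proliferation and neuroblast genes, which the bulb's migrating precursors express, had 2 of 21 higher and 5 lower. Without fluoxetine male 2 the number lower was 0.

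Blood genes had 1 of 9 higher, and the haemoglobin gene Hbb-bs was not called (limma adjusted p = 0.204). The summed level of the blood list ran from 19650 to 35470 normalised counts under lithium and from 17120 to 33380 under fluoxetine. The sums of the striatal list (14430 to 16220 and 13910 to 15600) and of the choroid plexus list (305.8 to 595.6 and 328.8 to 641.3) also overlapped between the drugs. Sums of the bulb list overlapped too, so overlap does not show equal levels. Of 16 striatal genes 3 were higher and 2 lower (7.79% and 6.41% over all genes). Of 10 choroid plexus genes 0 were higher and 1 lower.

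Other lists gave 3 of 19 circadian clock genes higher and 1 lower, 4 of 31 lysosomal genes higher and 0 lower, and 0 of 28 splicing genes higher and 3 lower. Hlf, a clock output factor, rose by 0.20 (limma adjusted p = 0.00687), and Clock by 0.13 (limma adjusted p = 0.0348), a call lost without any 1 of 9 libraries. Other named rises were Mas1, a receptor gene (0.44, limma adjusted p = 0.00676), Slc24a2, an exchanger of sodium, calcium and potassium (0.44, limma adjusted p = 0.00676), Nxph3, a neurexin ligand (0.44, limma adjusted p = 0.0162), Iqgap2, a cytoskeletal scaffold (0.46, limma adjusted p = 0.0134), Fam135b (0.46) and Robo3, an axon guidance receptor (0.48, limma adjusted p = 0.0231). Lars2, a mitochondrial leucyl-tRNA synthetase (0.56), and mt-Nd6, a complex I gene of the mitochondrial genome (0.44), lost their calls in 15 and 14 of 19 cases when 1 library was left out. Tmem50b was higher without overlap of the groups (2833 ± 110 and 2417 ± 123 normalised counts, SD, n = 10 and 9; limma adjusted p = 0.000473).

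The sexes were also taken apart. In males 2753 genes were called (15.9%), 1539 higher (8.87%) and 1214 lower (6.99%) under lithium. In females limma called 0 (1794 genes at an unadjusted p under 0.05), and so did edgeR. The difference between the sexes was itself tested, with 0 genes called by limma (1704 at an unadjusted p under 0.05) and 0 by edgeR, so a sex difference in the drug contrast is not shown for any gene. The 2465 genes were called on the average of the sexes in these same libraries, a choice that favours genes with the same sign in each. All 2465 had the same sign in both sexes, which is therefore no test of agreement. Their median size was 0.142 in females and 0.261 in males, and the difference was larger in males for 2159 of them. The bulb list moved in the same way, with a median of -0.838 in females and -1.96 in males, and with its list mean as a covariate 1 gene was called in males (0.00576%). The gene of smallest p for the sex difference was Smad6, an inhibitor of BMP signalling, at -0.44 in females and 0.61 in males (limma adjusted p = 0.492).

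The median difference of the sterol genes was 0.162 in females, where 0 of 25 were called, and 0.195 in males, where 10 were higher. Hmgcs1 differed by 0.24 in females and 0.31 in males, Castor2 by 0.20 and 0.29, Sesn3 by 0.24 and 0.22, Pnck by -0.38 and -0.31, and Ctnnb1 by -0.18 and -0.13. The male count rested on single libraries, from 806 without fluoxetine male 2 to 3770 without lithium male 1. It was 1416 without fluoxetine male 1, 1327 without lithium male 2, 1805 without lithium male 4 and 1514 without lithium male 5.

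In heterozygous Dyrk1a+/I48X mice the same contrast gave 0 of 17449 genes called by limma (1870 at an unadjusted p under 0.05) and 0 by edgeR. The difference between genotypes was tested too, with 0 of 17753 genes called by limma (1746 at an unadjusted p under 0.05) and 0 by edgeR. The gene of smallest p for it was Tmem144, at 0.44 ± 0.094 for the wild-type minus the heterozygous difference (limma adjusted p = 0.502). Of the 2463 wild-type calls with a heterozygous value, 1653 had the same sign (67.1%), against 57.4% over all genes. Without heterozygous fluoxetine males 3 and 4 it was 2048 of 2461 (83.2%), against 63.3%. When all 59 libraries were fitted together, 588 of 17901 genes were called in heterozygous mice (3.28%) and 28 in wild-type mice (0.156%), so the larger count is with wild-type mice in the one design and with heterozygous mice in the other. With all heterozygous libraries the bulb list did not separate the drugs, with a median difference of -0.01. Its list mean was 0.205 ± 1.23 under lithium and 0.212 ± 1.06 under fluoxetine (SD, n = 10 each). Fluoxetine males 3 and 4 were the lowest of the fluoxetine libraries, at -1.37 and -1.40. Leaving them out therefore raises the fluoxetine mean above the lithium mean, the same direction as in wild-type mice. The share of 83.2% was taken without these 2 males, so it does not come from libraries with equal bulb levels. The other fluoxetine libraries ran from -0.597 to 1.44, and the lithium libraries from -1.99 to 1.53.

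Heterozygous fluoxetine males 3 and 4 stood apart, with glucocorticoid list means of 1.54 and 0.497, so values are also given without them. Of the 34 genes without overlap in wild-type mice, 31 had the same sign with all heterozygous libraries and 33 without the 2. With all libraries Rapgef5 was at -0.12 (0.21 in wild-type mice), Acaa1a at 0.08 (-0.21) and Dlx1as at 0.11 (-0.39), and without the 2 males Eps15l1 was at 0.01 (-0.12). Castor2 was at 0.19 with all libraries and 0.18 without the 2, Sesn3 at 0.13 and 0.16, Pnck at -0.19 and -0.24, and Ctnnb1 at -0.30 and -0.20. None was called in those fits. Without the 2 males and with the bulb covariate 18 of 17337 genes were called (0.104%), Ctnnb1 among them at -0.21 ± 0.03 (limma adjusted p = 0.0204). Pvalb was at 0.42 and 0.43 without the covariate, and the sterol list at a median of 0.05 with and without the 2 males, where 0 of 25 were called in each case.

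Against vehicle in wild-type mice, 95 of 17585 genes were called for lithium (0.54%), 50 higher and 45 lower, and 1207 for fluoxetine (6.86%), 621 higher and 586 lower. With the bulb covariate the numbers were 326 (1.85%; 0.961% higher and 0.893% lower) and 77 (0.438%). Bulb markers were not called for lithium against vehicle (median 0.132), and 16 of 18 were higher for fluoxetine (background 3.53% higher, median 1.37). The fluoxetine count ran from 322 without fluoxetine male 4 to 3167 without vehicle female 4, and the lithium count from 60 without lithium male 4 to 131. Of the genes described above, Castor2, Pnck, Pvalb, Gpr83, Zbtb16 and Ctnnb1 were called for lithium against vehicle and not for fluoxetine. Sesn3, Stard4, Hmgcs1, Sc5d, Msmo1, Nsdhl, Idi1, Fkbp5, Nr4a3, Fos and Arc were among those called for fluoxetine and not for lithium. The test of the drugs against each other is the direct comparison given first.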

How the data were processed

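RNA sequencing libraries from prefrontal cortex were made with a strand-specific kit for polyadenylated RNA, per the labels. The submitters' processing notes name Salmon 0.11.2, R 3.6.0, DESeq2 1.19.11 and GRCm38. The authors deposited 1 table of normalised signal for 18088 genes: counts scaled by each library's size factor. Whole counts were recovered for 100% of values within 0.01 counts. The sample labels gave every group.

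Here limma 3.58.1 in R 4.3.3, with a trend, was fitted to log2(value + 1), which understates changes of low genes, for genes at 10 or more in at least 4 libraries, with drug and sex as terms (16 residual degrees of freedom). Benjamini-Hochberg adjustment ran over all genes tested. The steps were tested on simulated data. Interaction fits tested sex and genotype.

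The samples, gene lists and tests were chosen with earlier results of these data known. Named genes are the 12 largest called rises and 12 largest called falls of genes whose mean is not below the median, up to 4 members of a list by smallest p, up to 8 genes each by smallest p for sex and genotype differences, and Gsk3a, Gsk3b, Ctnnb1, Axin2, Impa1, Slc5a3, Htr1a, Htr2a, Htr2c, Bdnf, Fos, Arc, Zbtb16 and Dyrk1a. Others, such as Castor2, Sesn3, Pnck, Tmem50b, Rragb and Slc38a9, were chosen after their values were seen. A few genes under this rule are not reported here. Alternatives were pseudocount, filter, TMM and quantile scaling, array weights, other library sets, striatal, myelin and olfactory bulb covariates, the replicate number as a block, edgeR 4.0.16, DESeq2 1.42.0 and leaving out each library. The bulb covariate and 57-library fits (without heterozygous fluoxetine males 3 and 4) were added after seeing the data.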

Additional observations from a re-analysis of the deposited data

Results flagged for a closer look

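Of 260 groups of values checked for a single library that stands far from the others, 13 held one. The check flags about 1 group in 20 by chance.

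Fluoxetine female 1 stood highest of the fluoxetine libraries for the interferon-stimulated list, with a list mean of 1.03 against 0.191 for the next, and for 3 of its members: Ifit1 at 254 normalised counts against 108, Rtp4 at 173 against 90.4 and Usp18 at 168 against 55. The report gives those results without this library. Fluoxetine female 4 was lowest for the list of mitochondrially encoded genes, at -0.438 against -0.16, and highest for Sdf2l1, at 383 against 257. Fluoxetine female 5 was highest for Ctnnb1, at 20600 against 19300. Fluoxetine male 4 was lowest for Tle4, at 801 against 979, and highest for Hbb-bs, at 7960 against 5310.

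Among lithium libraries, male 4 was lowest for the complement list, at -0.266 against -0.109. Lithium male 5 was highest for the potassium channel list, at 0.182 against 0.105, and for Clock, at 3850 against 3450. Lithium female 4 was highest for Nefh, at 1760 against 1370.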

How the results depend on the processing

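The count of 2465 genes stayed within 1.5 times with a pseudocount of 5, no filter, a filter of 100, TMM or quantile scaling, edgeR (2238), DESeq2 (2722), and striatal (1888) or myelin (2857) covariates. With the replicate number as a block it was 2370. The numbers do not pair the mice: same-number correlations of deviations ran from -0.203 to 0.106, and its own number was the best match for 1 of 9. The count was 1163 in the fit of 29 wild-type libraries, 362 in that of 57 libraries, 28 in that of all 59 and 3895 with array weights. With the bulb covariate it was 3, 31 with vehicle added, 13 over all 59 libraries, 52 over 57, and 6 with edgeR. The cause of these changes was not tested. The share of calls higher under lithium was 54.8% as reported, 50.1% with TMM scaling and 49.8% with quantile scaling. Leaving out 1 library gave 1302 to 3493.

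In males the count was 1 over all 59 libraries, 4994 with array weights, 1 with the bulb covariate, and 806 to 3770 leaving out 1 library. In females it was 0 to 27 leaving out 1 library, the highest without fluoxetine female 2, with 1 without lithium female 5. For the sex difference it was 0 to 1. In heterozygous mice it was 588 over all 59 libraries and 18 without fluoxetine males 3 and 4 and with the bulb covariate. For lithium against vehicle it was 29 over all 59, 326 with the covariate and 60 to 131 leaving out 1 library. For fluoxetine against vehicle it was 80 over all 59, 77 with the covariate and 322 to 3167 leaving out 1 library, where fluoxetine females 2, 4 and 5, the 4 fluoxetine males, the 5 vehicle females and vehicle males 2 to 5 each moved it by more than 1.5 times.

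Eomes, Doc2g, Cdhr1 and Th belong to the bulb list, so the bulb covariate is partly made of their own values. In the 19 libraries with the bulb covariate the sign turned for Eomes (0.10), Doc2g (0.075), Cdhr1 (0.14), Th (0.052), Sp8 (0.024), Lgr6 (0.13), Gsk3a (-0.0057), Zbtb16 (-0.080) and Htr1a (-0.12). With 29 libraries and the covariate it turned for Eomes (0.23), Doc2g (0.084), Cdhr1 (0.18), Th (0.024), Sp8 (0.038), Lgr6 (0.10), Pbx3 (0.0018), Fabp7 (0.0082), Gsk3a (-0.016), Zbtb16 (-0.035) and Htr1a (-0.086). With all 59 and the covariate it turned for Eomes (0.075), Doc2g (0.092), Cdhr1 (0.13), Th (0.033), Sp8 (0.11), Lgr6 (0.084), Pbx3 (0.090), Fabp7 (0.11), Bdnf (-0.12), Gsk3a (-0.036), Htr2c (-0.055), Htr1a (-0.050), Dyrk1a (-0.035) and Wnt5a (0.0098). With 57 and the covariate it turned for Eomes (0.039), Doc2g (0.059), Cdhr1 (0.086), Th (0.048), Sp8 (0.089), Lgr6 (0.081), Pbx3 (0.084), Fabp7 (0.076), Bdnf (-0.089), Gsk3a (-0.038), Htr2c (-0.082), Htr1a (-0.11), Dyrk1a (-0.0046), Wnt5a (0.019) and Tbr1 (-0.026). With edgeR and the covariate it turned for Eomes (0.034), Doc2g (0.064), Cdhr1 (0.14), Th (0.037), Sp8 (0.037), Lgr6 (0.15), Pbx3 (0.0063), Gsk3a (-0.0038), Zbtb16 (-0.078), Htr1a (-0.12) and Slc18a2 (0.020). Dyrk1a was -0.0084 with quantile scaling and Htr2a ran from -0.084 to 0.0060 when 1 library was left out, the highest without fluoxetine female 2. Neither was called.

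Usp18, Slc18a2 and Maff, at 24.9, 31.8 and 32.6 normalised counts under lithium, rest on few counts, and their log2 differences are understated by the pseudocount. Litters are not named in the labels, and the dose that reached a pup was not analysed here.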
